A study of Mus musculus with 12 samples.

Results

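The immediate early transcription factors followed here are 10 genes: Fos, Fosb, Jun, Junb, Egr1, Egr2, Egr3, Atf3, Nr4a1 and Ier2. Every non-control probe that carried one of these names in the scanner files was taken, which gave 13 probes of the 41174 on the array. Of these, 12 passed the filter, being brighter than background on 3 arrays or more, and were tested, at least 1 for each gene; a second Egr3 probe was not. Whole hearts of male C57BL/6 mice were measured, 1 heart per array and 3 hearts in each of 4 groups. The cardioGRKO mice carry a floxed glucocorticoid receptor allele (GRflox) and Cre recombinase driven by the αMHC promoter, which is active in cardiomyocytes. Their controls are GRflox littermates without Cre, so an effect of Cre itself and an effect of losing the receptor cannot be told apart. Each genotype was sampled at 1 month and at 2 months of age. No label says how the hearts were collected or how long this took.

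Immediate early genes are transcribed within minutes of a stimulus, without new protein synthesis, through factors that already sit at their promoters, among them SRF with its ETS partners and CREB. Their products are mostly transcription factors: Fos and Jun proteins pair to form AP-1, Egr proteins are zinc-finger activators, and Nr4a1 is an orphan nuclear receptor. In the heart they respond to stretch, adrenergic drive and ischaemia, and also to handling and removal of the tissue, which is why the values are given heart by heart. The glucocorticoid receptor is known to bind AP-1 and hold down its activity.

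Promoter sequences from RefSeq (build GRCm38.p6) were matched by symbol for 7 of the 10 genes. The 250 bases before the gene start are shown for Nr4a1, the only member that passed a test, and for Fos and Fosb, the pair of Fos proteins that did not. Each sequence reads 5′ to 3′ on the gene's strand, and capitals mark the core letters of a cyclic AMP response element, TGACG on either strand.
Nr4a1, chr15:101266596-101266845, plus strand: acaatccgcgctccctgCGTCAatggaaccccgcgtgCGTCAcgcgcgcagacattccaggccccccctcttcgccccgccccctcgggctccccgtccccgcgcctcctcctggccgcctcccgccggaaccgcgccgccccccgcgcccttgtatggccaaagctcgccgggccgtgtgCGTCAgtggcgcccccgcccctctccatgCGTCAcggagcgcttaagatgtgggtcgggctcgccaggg
Fos, chr12:85473640-85473889, plus strand: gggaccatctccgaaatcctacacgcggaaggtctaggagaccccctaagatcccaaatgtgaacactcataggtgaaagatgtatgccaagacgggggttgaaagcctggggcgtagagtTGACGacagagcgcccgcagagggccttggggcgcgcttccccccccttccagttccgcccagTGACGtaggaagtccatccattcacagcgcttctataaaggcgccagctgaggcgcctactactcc
Fosb, chr7:19310046-19310295, minus strand: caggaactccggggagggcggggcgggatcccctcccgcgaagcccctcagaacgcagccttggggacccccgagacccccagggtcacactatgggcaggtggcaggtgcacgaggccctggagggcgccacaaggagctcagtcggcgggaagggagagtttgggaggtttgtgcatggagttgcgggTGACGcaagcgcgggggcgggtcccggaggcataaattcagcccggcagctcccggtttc

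The core letters occurred 4 times before Nr4a1, 2 times before Fos and 1 time before Fosb. Of the matched genes not shown, Junb, Atf3 and some Egr2 starts had them too, and Jun did not. They occur at least once in 17.8% of the 32851 promoter windows in the table, which is a share of windows and not a number of copies. Neither the full element TGACGTCA, present in 1.55% of all windows, nor the AP-1 letters TGANTCA, present in 6.75%, occurred in the windows of the 7 genes. The CArG box bound by SRF, present in 1.47% of windows, was found before 4 of the 5 listed Egr2 starts, at bases -72 to -63 from the start in 2 of them. The windows of the listed starts 3, 4 and 5 overlap and hold the same box, so that box is counted more than once. These letters are a description of the windows, and no binding was measured.

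The labels were checked on the targeted gene. The brightest of the 4 Nr3c1 probes, which read the glucocorticoid receptor transcript, gave, for cardioGRKO minus GRflox, a log2 difference of -0.998 (SE 0.12, limma adjusted p = 0.0687) at 1 month and -1.14 (SE 0.12, adjusted p = 0.0145) at 2 months. Its log2 level over the 75th percentile of the array ran from 2.11 to 2.56 and from 1.99 to 2.15 in the GRflox hearts of 1 and 2 months, and from 1.21 to 1.31 and from 0.86 to 0.96 in the cardioGRKO hearts, with no overlap. The other 3 probes were also below 0 at both ages; where the probes lie relative to the deleted part is not given in the sources used here. Of 7 cardiomyocyte markers, 6 were well above background on all 12 arrays. The 75th percentile of signal lay between 885.8 and 1549.1 intensity units, and 67.5% to 82.2% of spots were well above background. The arrays came from 4 slides. Slide 1 held only GRflox_1month hearts, slide 2 cardioGRKO_1month replicates 2 and 3 with GRflox_2month replicates 1 and 2, slide 3 GRflox_2month replicate 3 with cardioGRKO_2month replicates 1 and 2. Slide 4, read on the second scan day, held cardioGRKO_1month replicate 1 and cardioGRKO_2month replicate 3. The shares above background were largest on those last 2 arrays, 79.4% and 79.6%, and on GRflox_2month replicate 2, 82.2%.

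Nr4a1, the orphan nuclear receptor also called Nur77, was the 1 member that passed a test. Its level rose from 1 month to 2 months of age by a log2 fold change of 0.94 (SE 0.14, limma adjusted p = 0.00648). This was a 1.92-fold rise averaged over both genotypes. In that comparison 1 of 12 member probes passed against 7.52% of all probes, so the count is close to the background share. No member passed for genotype at either age. Fos, the sentinel of the family, differed by 0.07 (SE 0.35) between genotypes and by -0.19 (SE 0.35) between ages, and Fosb varied between hearts of 1 group by more than any difference between groups. In whole hearts, fewer cells of a type and less RNA per cell cannot be told apart. Levels below are log2 of the processed signal over the 75th percentile of the array, so that 0 is the brightness of that percentile and -1 is a signal 1 log2 unit dimmer.

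**Figure D1:**
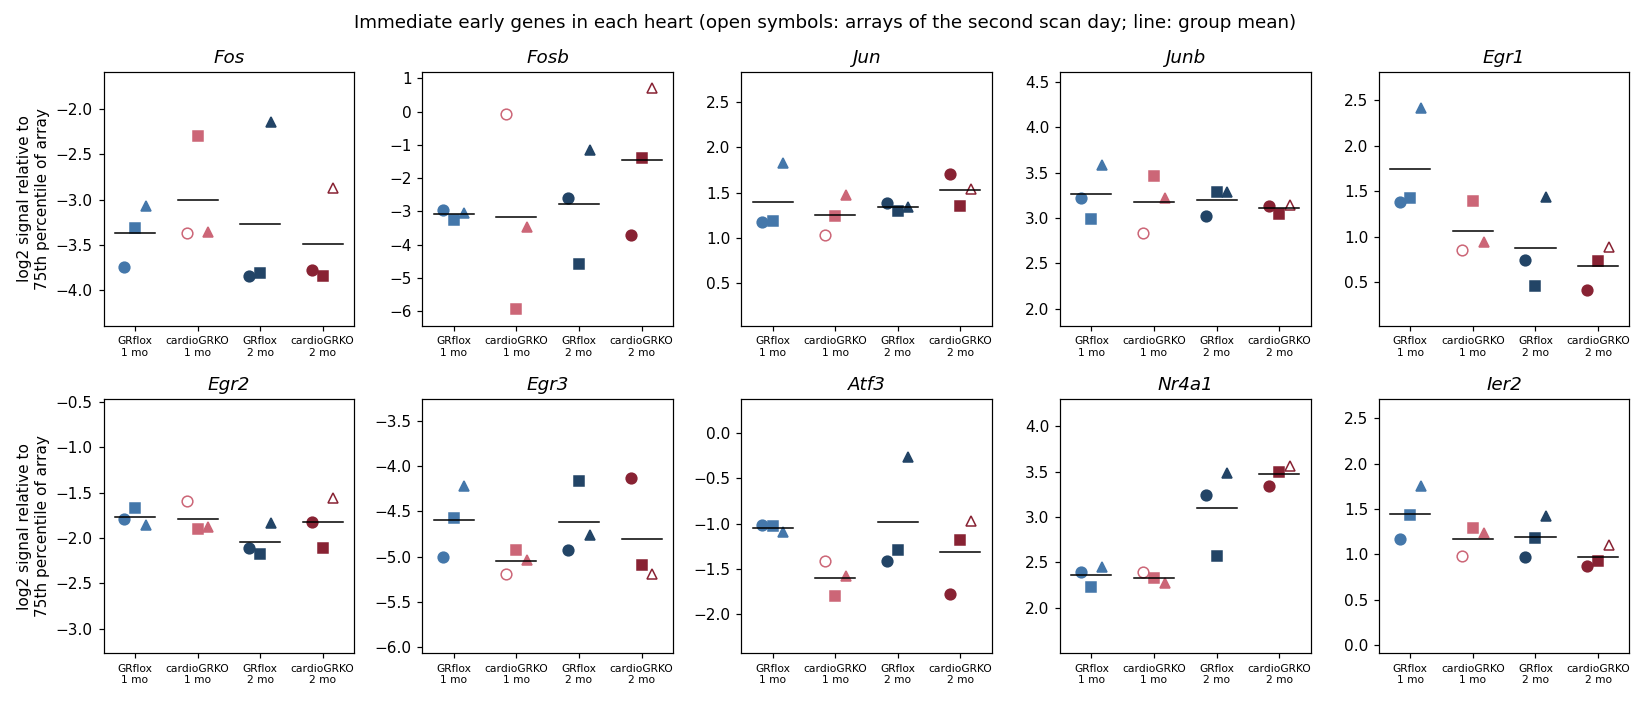
Log2 level of each of the 10 genes (brightest probe) in every heart, by group, each panel with its own vertical axis; lines are group means of 3 hearts and open symbols are the 2 arrays of the second scan day. Only Nr4a1 has all 6 hearts of 2 months above all 6 of 1 month, while Fosb spans -5.94 to 0.69 and Fos has 1 high heart in 3 of the groups.

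Nr4a1 stood at 2.39, 2.23 and 2.45 in the 3 GRflox_1month hearts and at 2.39, 2.33 and 2.27 in the cardioGRKO_1month hearts. At 2 months it stood at 3.24, 2.57 and 3.49 in GRflox and at 3.35, 3.50 and 3.57 in cardioGRKO. All 6 older hearts lay above all 6 younger ones, and replicate 2 of GRflox_2month was the lowest of the older hearts. Complete separation of the ages was seen for 5.88% of all probes, and 7.52% of all probes passed in this comparison, 1193 higher and 1249 lower. With quantile scaling the split was 679 higher and 1141 lower, and with each array centred on its median it was 54 and 172. The median of all probes was 0.12 log2 units higher at 2 months, and the Nr4a1 rise of 0.94 exceeded that shift.

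Within each genotype the Nr4a1 rise did not pass. It was 0.74 (SE 0.20, adjusted p = 0.119) in GRflox, where 1.46% of probes passed, and 1.14 (SE 0.20, adjusted p = 0.0546) in cardioGRKO, where 0.419% passed. The difference between the genotype effects at the 2 ages was 0.40 (95% interval -0.24 to 1.04, adjusted p = 1), and 0% of probes passed that test, with 462 of 32454 at an unadjusted p under 0.05. Without GRflox_2month replicate 2, the lowest of the older hearts, the rise passed in both genotypes, at 1.00 (adjusted p = 0.0193) and 1.14 (adjusted p = 0.0201). With each heart left out in turn, the rise in GRflox ran from 0.54 to 1.00 (limma adjusted p from 0.0193 to 0.319). In cardioGRKO it ran from 1.09 to 1.20 (limma adjusted p from 0.0201 to 0.214). Centring each array on its median instead of its 75th percentile ended the averaged call (0.78, adjusted p = 0.21). Since slide 1 held all GRflox_1month hearts, slide and age cannot be told apart among the controls. In cardioGRKO, the 2 hearts on slide 4 differed by 1.18, the older one being higher, and with slide as a fixed term the difference was 0.89 (adjusted p = 0.519). The probe, A_51_P239654, lies at chr15:101260484-101260543 of build mm7, plus strand, per the array annotation.

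Across genotypes Nr4a1 did not separate. Its difference, cardioGRKO minus GRflox, was -0.03 (95% interval -0.48 to 0.43) at 1 month and 0.37 (95% interval -0.08 to 0.83) at 2 months. Its mean level ± SD (n = 3) was 2.36 ± 0.11 in GRflox_1month and 2.33 ± 0.06 in cardioGRKO_1month, which did not differ beyond their spread. At 2 months the SD was 0.48 in GRflox and 0.11 in cardioGRKO, whose mean, 3.47, was the highest of the 4 groups.

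Fos encodes the AP-1 subunit that is the usual sentinel of recent stimulation. Its log2 level was -3.74, -3.31 and -3.07 in GRflox_1month and -3.37, -2.30 and -3.36 in cardioGRKO_1month. At 2 months it was -3.84, -3.81 and -2.14 in GRflox and -3.77, -3.84 and -2.87 in cardioGRKO. The high hearts were cardioGRKO_1month replicate 2 and replicate 3 of both 2-month groups, and the groups overlapped at each age. The Fos probe was printed 10 times on each array, and the spots of 1 array had a median SD of 0.096, at most 0.415 on any array, against an SD of 0.66 between hearts of a group. The spread between hearts was therefore larger than that between spots. The genotype difference was 0.36 (SE 0.50, adjusted p = 0.901) at 1 month and -0.23 (SE 0.50, adjusted p = 0.969) at 2 months. The 95% intervals were -0.76 to 1.49 and -1.36 to 0.90, so changes of 1 log2 unit in one direction lay inside each.

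Fosb encodes a second Fos-family subunit of AP-1. It was at -2.95, -3.25 and -3.03 in GRflox_1month, and at -0.07, -5.94 and -3.46 in cardioGRKO_1month. It was at -2.59, -4.60 and -1.17 in GRflox_2month, and at -3.71, -1.39 and 0.69 in cardioGRKO_2month. Only the GRflox_1month hearts lay close together, and the spot of cardioGRKO_1month replicate 2 was not well above background, so its value is only a bound. The SD between hearts of a group was 2.03, higher than in 99.6% of all probes tested, against a median of 0.25 over all probes. Both use that bound at its measured value, and without that heart the SD was 1.75, higher than in 98.9% of probes. The 2 highest hearts, cardioGRKO_2month replicate 3 and cardioGRKO_1month replicate 1, are the 2 arrays of slide 4 and the second scan day. Of the other 10 arrays, the 9 with a spot well above background ran from -4.60 to -1.17. The probe has 1 spot per array, so spot error could not be measured, and the part of scan day in its spread was not tested. Its genotype difference was -0.08 (95% interval -3.53 to 3.38) at 1 month, or 1.32 without the heart at the bound, and 1.31 (95% interval -2.14 to 4.77) at 2 months.

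**Figure D2:**
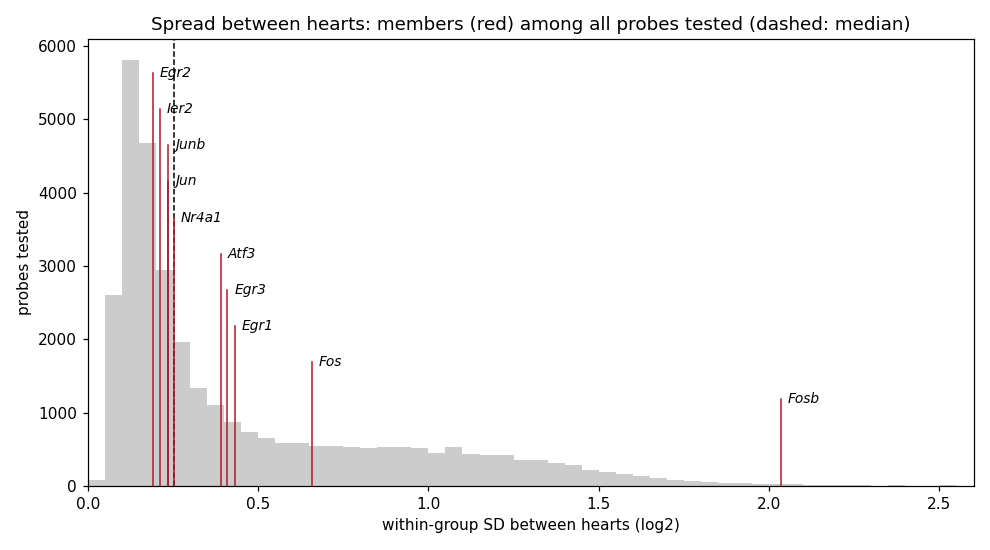
Histogram of the within-group SD between hearts (log2) over the 32455 probes tested, drawn up to 2.6, with the brightest probe of each of the 10 genes marked in red and the median of all probes, 0.25, dashed. Fosb lies at 2.03 in the far tail, Fos at 0.66, and Egr2, Ier2, Junb and Jun lie below the median.

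Jun and Junb, the partners of the Fos proteins in AP-1, varied between hearts about as much as the median probe. The SD of Jun between hearts of a group was 0.24, against a median of 0.25 over all probes. Jun was at 1.18, 1.18 and 1.83 in GRflox_1month and at 1.03, 1.24 and 1.48 in cardioGRKO_1month. At 2 months it was at 1.38, 1.29 and 1.35 in GRflox and at 1.70, 1.35 and 1.54 in cardioGRKO. GRflox_1month replicate 3 was the highest heart of the 12, and the groups overlapped at both ages. Jun differed between genotypes by -0.14 (SE 0.19, adjusted p = 0.898) at 1 month and 0.19 (SE 0.19, adjusted p = 0.902) at 2 months. Both Junb probes had an SD of 0.24 between hearts of a group, and their fitted differences in the 7 comparisons lay between -0.09 and 0.06. The 95% intervals for genotype averaged over both ages were -0.28 to 0.32 for Jun and -0.39 to 0.21 for the brighter Junb probe, so a change of 1 log2 unit lay outside both.

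Atf3, a stress-induced member of the ATF/CREB family that can pair with Jun proteins, was the 1 member whose groups did not overlap between genotypes. At 1 month it was at -1.02, -1.03 and -1.09 in GRflox and lower, at -1.41, -1.79 and -1.58, in cardioGRKO. All GRflox_1month hearts were on slide 1 and no cardioGRKO_1month heart was, so genotype and slide cannot be told apart at 1 month, for Atf3 or any other member. Separation at 1 month was found for 17.6% of all probes, so that 1 of 12 member probes is not above the background share. The difference was -0.55 (SE 0.30, adjusted p = 0.874), and 0 of the 12 member probes passed, as 0.0185% of all probes did. At 2 months Atf3 was at -1.41, -1.29 and -0.26 in GRflox and at -1.78, -1.18 and -0.97 in cardioGRKO, which overlapped. GRflox_2month replicate 3 stood well above the other hearts. The difference at that age was -0.32 (SE 0.30, adjusted p = 0.889). At 2 months 0 of 12 member probes passed against 0.105% of all probes, and none separated the genotypes against 12.6%.

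Egr1, a zinc-finger activator induced through SRF and its ETS partners, was at 1.38, 1.42 and 2.42 in GRflox_1month and at 0.85, 1.39 and 0.94 in cardioGRKO_1month. At 2 months it was at 0.74, 0.45 and 1.43 in GRflox and at 0.41, 0.73 and 0.89 in cardioGRKO. Replicate 3 was the highest of the 3 hearts in both GRflox groups. The level averaged over genotypes was 0.63 log2 units lower at 2 months (log2 fold change -0.63, SE 0.23), with an unadjusted p of 0.0245 that missed the threshold after adjustment (limma adjusted p = 0.139). In GRflox alone the value was -0.87 (SE 0.33, adjusted p = 0.248). The genotype difference was -0.68 (95% interval -1.43 to 0.06) at 1 month and -0.20 (95% interval -0.95 to 0.55) at 2 months.

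Egr2, a close relative of Egr1, was among the steadier members, with an SD of 0.19 between hearts of a group over 10 spots per array. It ranged from -2.18 in GRflox_2month replicate 2 to -1.56 in cardioGRKO_2month replicate 3. Egr3, which is itself a target of other early factors, was read by 1 tested probe, from -5.19 to -4.13, with an SD of 0.41. Neither gene approached the threshold, and their genotype differences averaged over both ages were 0.10 (SE 0.11) and -0.32 (SE 0.22).

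Ier2, a nuclear protein of the early response, was read by 2 probes that did not move together. Probe A_51_P481325 was at 1.16, 1.43 and 1.75 in GRflox_1month and at 0.98, 1.29 and 1.24 in cardioGRKO_1month. At 2 months it was at 0.97, 1.18 and 1.42 in GRflox and at 0.87, 0.93 and 1.10 in cardioGRKO. Probe A_52_P554555 was at -2.64, -3.15 and -3.14 in cardioGRKO_1month and at -2.62, -2.30 and -2.43 in cardioGRKO_2month, which do not overlap. Across the 12 hearts the 2 probes had r = -0.13 (rho = -0.17, permutation p = 0.686 and 0.586; adjusted over 4 probe pairs, 0.724 for r). Their age differences averaged over genotypes were -0.23 (SE 0.12, adjusted p = 0.27) and 0.31 (SE 0.17, adjusted p = 0.293), of opposite sign. A statement on Ier2 therefore holds for 1 probe at a time.

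**Figure D3:**
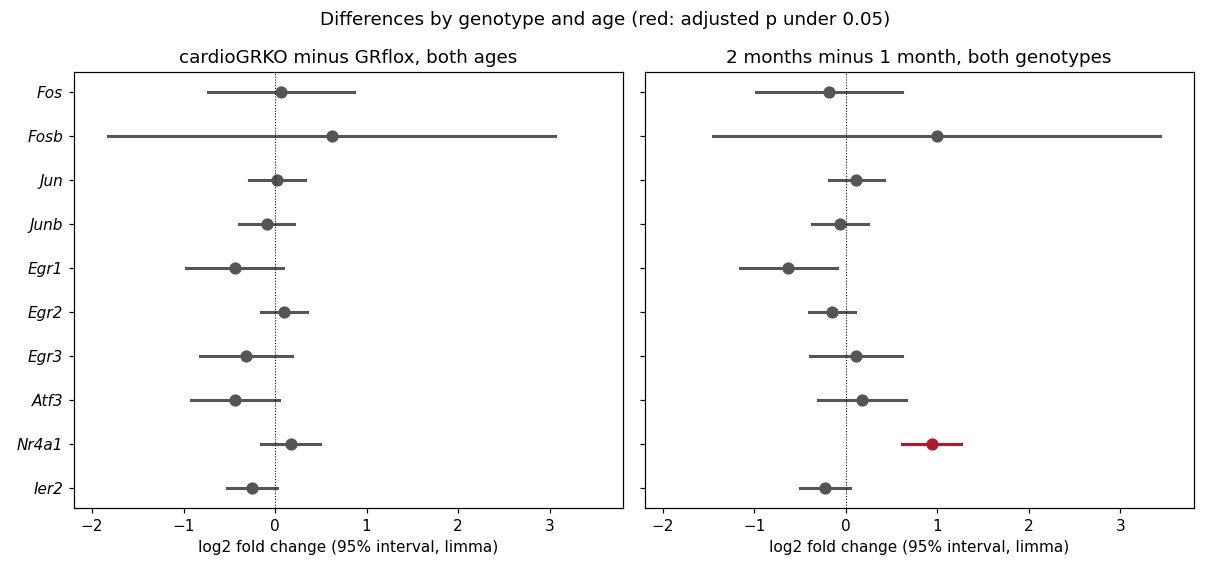
Log2 fold change of the brightest probe of each gene with its 95% interval from limma, for cardioGRKO minus GRflox averaged over both ages (left) and 2 months minus 1 month averaged over both genotypes (right). Nr4a1 with age, 0.94, is the only value drawn in red for an adjusted p under 0.05, and the Fosb intervals are the widest.

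Over all member probes, 10 of 12 lay below 0 for cardioGRKO against GRflox at 1 month, with a median of -0.12 against 0.02 for all probes, and 7 of 12 at 2 months, with a median of -0.05 against -0.0027. Averaged over both ages 6 of 12 lay below 0, with 0 of 12 passed against 0.585% of all probes. None had an unadjusted p under 0.05 in any of the genotype comparisons. Of all probes 5.77% had such a p at 1 month, 8.28% at 2 months and 3887 of 32454 averaged over both ages. With 12 member probes, a count of 0 is not clearly below these shares. The count also moved with processing. It reached 3 at 1 month under normexp with quantile scaling, and 4 at 2 months and 3 averaged under array weights, with 0 passed after adjustment. For age, 1 of 12 member probes separated the groups in GRflox, where 22.1% of all probes did, and 2 of 12 in cardioGRKO, where 24.7% did. These were Nr4a1 in both and the second Ier2 probe in cardioGRKO.

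The hearts themselves differed in how many members were high. The counts below are of the 10 members, Nr4a1 with its split by age included. Shares over all probes were not taken, so a shift of a whole array cannot be told apart from one of these members. GRflox_1month replicate 3 had the highest level of 4 members, Egr1, Ier2, Jun and Junb, and 5 members among the top 3 of 12 hearts. GRflox_2month replicate 3 had 7 members among the top 3, with Fos and Atf3 the highest of all hearts, and no member among the lowest 3. cardioGRKO_2month replicate 3 held the highest Fosb, Egr2 and Nr4a1 and 6 members among the top 3. By contrast, cardioGRKO_2month replicate 2 had 5 members among the lowest 3. On slide 3, where GRflox_2month replicate 3 was read beside cardioGRKO_2month replicates 1 and 2, the genotype difference was -1.66 for Fos, -1.22 for Atf3 and -0.87 for Egr1, against -0.23, -0.32 and -0.20 over all hearts of that age. For Fosb it was -1.39 against 1.31, a turned sign, for Nr4a1 -0.07 against 0.37, and for the other 5 members between -0.52 and 0.18. The GRflox side of these values is that 1 heart, described here because its members were high, so they carry no test. GRflox_2month replicate 3 also had the highest neutrophil and erythroid marker scores of the 12 hearts, 2.28 and 0.57. The neutrophil and erythroid scores were -1.30 and -0.13 in cardioGRKO_2month replicate 3, which had 6 members among the top 3. They were 1.96 and -0.02 in cardioGRKO_2month replicate 1, which had 4 members among the lowest 3. Over the 12 hearts Fos had r = -0.11 and rho = -0.32 with the neutrophil score (permutation p = 0.732 and 0.31, adjusted over 18 measures 0.901 and 0.847). With the erythroid score Fos had r = 0.28 and rho = 0.24 (permutation p = 0.37 and 0.457, adjusted 0.901 and 0.847). The part of neutrophils or erythroid cells in the levels of GRflox_2month replicate 3 was not tested.

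**Figure D4:**
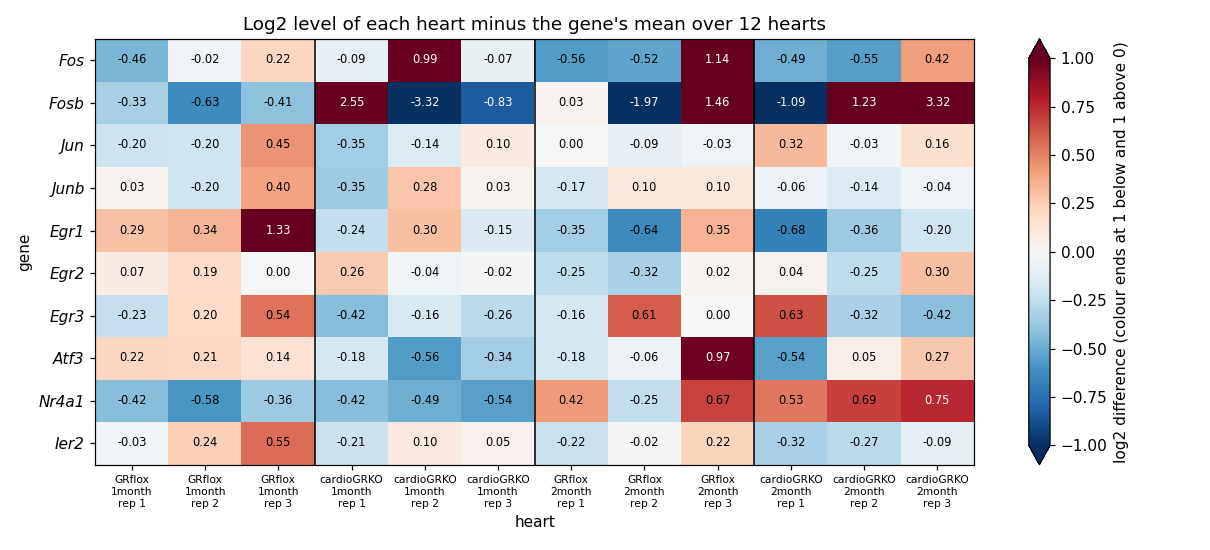
Log2 level of each gene (brightest probe) in each heart minus the mean of that gene over 12 hearts, with hearts in columns by group and colour running from -1 to 1. GRflox_1month replicate 3 and GRflox_2month replicate 3 are mostly above 0, and the Nr4a1 row turns from below 0 at 1 month to above 0 at 2 months in every heart but GRflox_2month replicate 2.

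Among the 45 pairs of members, 1 was correlated across the 12 hearts after adjustment. Egr1 and the brighter Ier2 probe had r = 0.89 (permutation p = 0.0004, adjusted over the 45 pairs 0.0193) and rho = 0.87 (p = 0.0005, adjusted 0.0211). Ier2 was the gene most like Egr1 among 11573 genes ranked. Without the 2 hearts farthest from the median of Egr1, r was 0.73. After subtraction of group means r was 0.82 (exact permutation within groups p = 0.0224, adjusted 0.168). Without GRflox_1month replicate 3, r was 0.78 with an adjusted permutation p of 0.303, and without cardioGRKO_2month replicate 1 it was 0.87 with 0.0607, so the call rests on those hearts. On the 10 arrays of the first scan day r was 0.89. The other Ier2 probe had r = -0.12 with Egr1 (rho = -0.10, permutation p = 0.724 and 0.766; adjusted 0.724 for r).

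**Figure D5:**
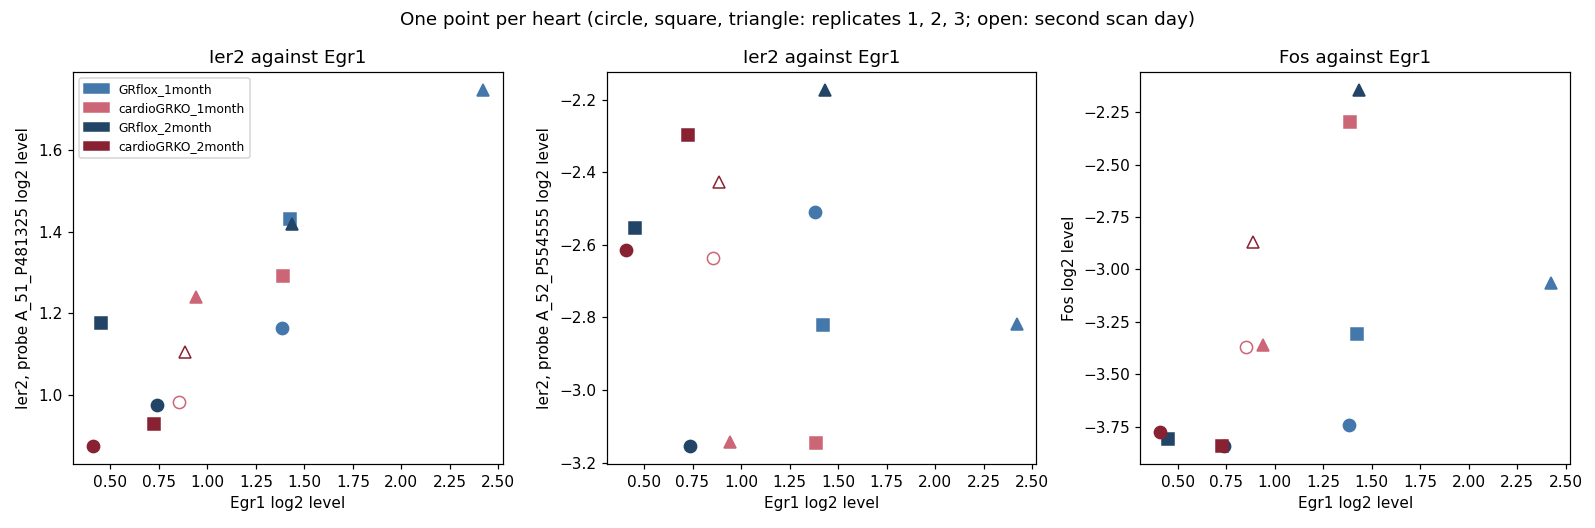
Log2 levels in the 12 hearts of the brighter Ier2 probe (left), the other Ier2 probe (middle) and Fos (right) against Egr1, coloured by group. The left panel rises with r = 0.89, the middle panel has r = -0.12, and in the right panel GRflox_1month replicate 3 is highest in Egr1 without being highest in Fos.

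No pair that included Fos passed after adjustment. With Egr1 Fos had r = 0.51 and rho = 0.78 (permutation p = 0.0923 and 0.0043; adjusted 0.407 and 0.0961), and r was 0.54 without the 2 hearts farthest from the median of Fos. With the brighter Ier2 probe it had r = 0.54 and rho = 0.70 (permutation p = 0.066 and 0.0143; adjusted 0.407 and 0.215), and r was 0.56 without those hearts. With Jun it had r = 0.01 and rho = 0.01 and with Nr4a1 r = 0.02 and rho = -0.15 (permutation p = 0.98 and 0.991, then 0.96 and 0.651; adjusted 0.98 and 1, then 0.98 and 0.976). Without those 2 hearts r was 0.28 and -0.15. Because Nr4a1 split the hearts by age, its r over all 12 hearts mixes age with other differences between hearts. After subtraction of group means r of Fos was 0.79 with Egr1 and 0.76 with the brighter Ier2 probe (exact permutation within groups p = 0.0085 for each, adjusted 0.139 for each). It was 0.18 with Jun and 0.55 with Nr4a1 (exact permutation within groups p = 0.486 and 0.398, adjusted 0.684 and 0.618). Over all 45 pairs the median r was 0.18, and 0.40 after subtraction of group means.

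The 10 other genes most like Fos across the 12 hearts, by Pearson r over genes well above background on every array, included Dusp1 (r = 0.73), Brip1, Trim13, Snai1, Ctse, Pon1, Ttpa, Ncoa1 and Hoxa7 (r = 0.62). Dusp1, a phosphatase that switches off stress-activated MAP kinases and is itself an early gene, led the list. Among the members, Ier2 ranked 33 of 11573 in likeness to Fos, Egr1 60, Junb 118, Egr2 350 and Atf3 354, while Nr4a1 ranked 4952, Jun 5096 and Egr3 8192. These places use r over all 12 hearts, so the place of Nr4a1 also reflects its split by age. None of the 18 measures set against Fos, namely the signal percentile, the share of spots above background and 16 list scores, passed after adjustment (adjusted permutation p of r at least 0.901). The largest by r was the score of glucocorticoid-responsive genes, with r = -0.51 and rho = -0.41 (permutation p = 0.0807 and 0.192, adjusted 0.901 and 0.847). Without the 2 farthest hearts its r was -0.58. By rho the largest was the cardiomyocyte score, with r = -0.34 and rho = -0.48 (permutation p = 0.274 and 0.122, adjusted 0.901 and 0.847).

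The other genes of the pathway were read from 5 lists. Of 10 tested AP-1 partners 0 passed in any of the 7 comparisons (limma), with at most 3 in one comparison at an unadjusted p under 0.05. Those 3 were found for age in GRflox and for age averaged over genotypes, where 15.6% and 24.8% of all probes had such a p. The largest values were those of Fosl1, another Fos-family subunit, at 0.69 (SE 0.60, adjusted p = 0.581), and Batf, at -0.48 (SE 0.21, adjusted p = 0.318), both for age in GRflox. For age averaged over genotypes, where 7.52% of all probes passed, 2 of 12 upstream factors and kinases fell: Elk3, an ETS partner of SRF (-0.39, SE 0.08, adjusted p = 0.0166), and Mapk8, the JNK1 kinase that phosphorylates Jun (-0.45, SE 0.09, adjusted p = 0.0191). Srf itself, Creb1 and the other 8 did not pass.

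Of 40 tested feedback and other early response genes, 3 rose and 3 fell with age averaged over genotypes, against the same 7.52% of all probes in either direction. Arc, an early gene best known from neurons, rose by 1.25 (SE 0.11, adjusted p = 0.00102) and also passed within GRflox (1.20) and within cardioGRKO (1.30). Gadd45b, a stress sensor of MAP kinase pathways, rose by 1.37 (SE 0.33, adjusted p = 0.0367), and Gdf15, a secreted stress cytokine, rose by 0.83 (SE 0.19, adjusted p = 0.0297). Dusp6, the phosphatase of ERK, fell by 0.42 log2 units (SE 0.08, adjusted p = 0.0189). Btg1 was at -0.40 (SE 0.07, adjusted p = 0.0115) and Plk3 at -0.44 (SE 0.11, adjusted p = 0.0406). The median of the list was -0.01 against 0.12 for all probes.

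For genotype averaged over both ages, 1 of those 40 genes passed, against 0.585% of all probes: Gdf15 was higher in cardioGRKO by 1.54 (SE 0.19, adjusted p = 0.0111). Arc was 0.62 higher (SE 0.11, adjusted p = 0.0519) without passing. Of 10 glucocorticoid-responsive genes 9 lay below 0 in cardioGRKO at each age, with medians of -0.33 and -0.36, and 0 passed (limma), against 0.0185% and 0.105% of all probes. At an unadjusted p under 0.05 they were 2 and 4 of 10, against 5.77% and 8.28% of all probes. The largest values were at 2 months, where Lcn2, a secreted acute-phase protein, was at -1.30 (SE 0.67, adjusted p = 0.681) and Cdkn1a, the cell cycle inhibitor p21, at 1.03 (SE 0.40, adjusted p = 0.535). Mt2, a metallothionein picked after its value was seen, was at -0.71 (SE 0.16, adjusted p = 0.105) averaged over both ages.

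Of 6 heat shock genes, 3 rose with age averaged over genotypes, where 7.52% of all probes passed in either direction: Bag3, a co-chaperone (0.54, SE 0.09, adjusted p = 0.00866), Hspa8, the constitutive Hsp70 (0.45, SE 0.09, adjusted p = 0.0154), and Hspb1, a small heat shock protein (0.37, SE 0.08, adjusted p = 0.0302). The inducible Hspa1a was at 0.57 (SE 0.15, adjusted p = 0.0542). The fibroblast markers, taken as a score, separated the ages as Nr4a1 did, in the opposite direction. Their score, which is the median deviation of the 7 genes from their own means over 12 hearts, ran from 0.22 to 0.75 at 1 month and from -0.48 to -0.27 at 2 months, and 5 of 7 fibroblast markers fell with age, namely Col1a1, Col1a2, Col3a1, Lum and Postn, with Col3a1 at -1.51 (SE 0.11, adjusted p = 0.000477). All 7 were well above background on all arrays. The heat shock score ran from -0.304 to -0.057 at 1 month and from -0.0563 to 0.289 at 2 months, so it too separated the ages. Because Nr4a1 and both scores split the hearts by age, their correlation is given within the 6 hearts of each age, for 6 relations that include the AP-1 partner score. With the fibroblast score Nr4a1 had r = -0.43 and rho = -0.54 at 1 month (exact permutation p = 0.392 and 0.297, adjusted 0.6 and 0.357) and r = 0.11 and rho = -0.09 at 2 months (exact p = 0.908 and 0.919, adjusted the same). With the heat shock score it had r = -0.31 and rho = -0.66 at 1 month (exact p = 0.503 and 0.175, adjusted 0.603 and 0.357), and r = 0.85 and rho = 0.60 at 2 months (exact p = 0.125 and 0.242, adjusted 0.375 and 0.357). With the AP-1 partner score it had r = 0.45 and rho = 0.66 at 1 month (exact p = 0.4 and 0.175, adjusted 0.6 and 0.357), and r = -0.81 and rho = -0.60 at 2 months (exact p = 0.0528 and 0.242, adjusted 0.317 and 0.357). None of the 6 passed, and 6 hearts leave each r imprecise. The part of any of the 3 in the Nr4a1 rise was not tested. Of the other 10 cell type lists, macrophage had 1 member that passed in this comparison (Cd68, -0.42, SE 0.07, adjusted p = 0.0115), and the rest had none.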

How the data were processed

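Per the labels' protocols, total RNA from whole hearts was purified with a column kit and DNase, and Cy3-labelled cRNA was made from 500 ng. Agilent Feature Extraction 9.5 read the scans, per the submitters' processing notes. Per the file headers, values are the scanner software's processed intensity, detrended within each array; the deposited value table equals it. Control spots (1639 of 45018 features) and spots marked as non-uniform or population outliers (88 to 402 per array) were left out here, and spots of a probe were averaged. The log2 signal minus the array's 75th percentile was fitted with limma 3.58.1 (R 4.3.3), 4 group means and all 12 arrays in one fit, over 32455 probes well above background on at least 3 arrays; 1 of them lacked a value for some comparisons. P-values are two-sided, with Benjamini-Hochberg adjustment over all probes and a threshold of 0.05. Errors of differences are SE of the fit; 3 hearts per group limit precision. Correlations used 100000 permutations of the 12 hearts, or all 1296 arrangements within groups. Where a gene has several probes, its brightest stands for it in rankings and correlations.

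Members and gene lists were chosen with earlier results of these data known. Named are every member probe, the 10 genes most like Fos (1 is not reported here), list genes that passed or up to 4 values, and Nr3c1. The cell type lists covered cardiomyocyte, lymphocyte, neutrophil, macrophage, endothelial, fibroblast, smooth muscle, adipocyte, lung, skeletal muscle and erythroid markers. The fit and the permutation test were tested on simulated data. Alternatives covered scaling, background, filters, probe choice, slide, scan day, replicate number, variance moderation, array weights and leaving out arrays; the 3 arrays with the largest share above background, every alternative for Egr1 with Ier2, Fosb without its bound and Nr4a1 with scores within each age were added after the data were seen. Python 3.11.15 ran the permutation tests (numpy 2.4.6) and the plots (matplotlib 3.10.9).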

Additional observations from a re-analysis of the deposited data

Results flagged for a closer look

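A signal was present in a member probe outside the tested set. The Egr3 probe A_51_P437198 was well above background on 2 of the 12 arrays, at a log2 level of -5.38 in cardioGRKO_1month replicate 1 and -4.83 in cardioGRKO_2month replicate 3. The GRflox hearts lay between -8.37 and -8.16 at 1 month and between -8.20 and -5.17 at 2 months, none of them well above background. The other 4 cardioGRKO hearts, at -7.92 and -5.64 at 1 month and -7.51 and -6.86 at 2 months, were not well above background either, and GRflox_2month replicate 2, at -5.17, was brighter than cardioGRKO_1month replicate 1. Both arrays are those of slide 4 and the second scan day, whose part in the signal was not tested. At the tested Egr3 probe, A_52_P440836, these 2 hearts ranked 12 and 11 of 12, both at -5.19. Across the 12 hearts the 2 Egr3 probes had r = -0.27 and rho = -0.41 (permutation p = 0.388 and 0.193, adjusted over 4 probe pairs 0.724 for r). The signal therefore holds for 1 probe and was not seen in the other. No group has more than 3 hearts, so single hearts were not tested as outliers.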

How the results depend on the processing

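No member passed for genotype under any alternative, and the age rise of Nr4a1 averaged over genotypes kept its direction under all 27 and passed under 26, all but centring on the median (0 member probes passed). The counts of all probes moved more. In the order knockout at 1 month, at 2 months, age in GRflox, age in cardioGRKO, knockout averaged and age averaged, array weights gave 40, 811, 3032, 4067, 1228 and 9978 probes, and a filter on all 12 arrays gave 14, 58, 788, 392 and 344 for the first 5. A trended robust prior gave 21, 105, 874, 500 and 441 for the same 5. Median centring gave 0, 4, 93, 0, 8 and 226. Leaving out the second scan day gave 0, 9, 231, 1, 21 and 894. Leaving out the 3 arrays with the largest share above background gave 1, 2, 132, 1, 12 and 946, and 3 for the difference between the knockout effects. The replicate block, which adds the replicate number, gave 2, 4, 181, 1, 43 and 1356, and no member call changed. Of 18 same-number pairs of hearts 5 correlated over 0.1 (from -0.68 to 0.49). These values do not settle whether the numbers pair the hearts, which was not tested. The arrays of the compared groups alone gave 0, 0, 3 and 0 for the first 4. No filter gave 19, 273, 32, 101 and 1551 from the knockout at 2 months on, and the mean of a gene's probes gave 312, 38, 111 and 1508 from age in GRflox on. Normexp gave 13 for the knockout at 1 month and 211 for age in cardioGRKO, where quantile scaling gave 88. Scan day as a block gave 50 there and 77 for the knockout averaged. Slide as a random block gave 261 and 73 for age in GRflox and in cardioGRKO; as a fixed term it could be fitted only for the knockout at 2 months (0) and age in cardioGRKO (0). Member probes called for age in cardioGRKO were 1 under the filter on all arrays, the brightest probe per gene, normexp and the trended prior, and 2 under array weights; in GRflox they were 1 under array weights and without the 3 arrays; averaged they were 2 under array weights. In each of these Nr4a1 was among them. Leaving out 1 heart gave 0 to 6, 8 to 23, 137 to 402, 0 to 85, 54 to 128 and 1165 to 2619 probes in the same order, with 0 to 1 member probes for age in either genotype. The lowest counts came without any 1 of 5 hearts of 1 month for the first, and for age in cardioGRKO without cardioGRKO_1month replicate 3 or cardioGRKO_2month replicate 2. The correlation of Egr1 with Ier2 ran from 0.778 to 0.946 with 1 heart left out (adjusted permutation p 0.0018 to 0.303), and was 0.729 (adjusted 0.354) without replicate 3 of both GRflox groups and 0.823 (adjusted 0.168) within groups. Among the 70 gene results, 62 of 1103 values under the other alternatives and 54 of 840 with 1 heart left out turned sign, none of them past the threshold. Depth is set by the arrays: the number of hearts limits every value, and 1 Fosb spot gave only a bound.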

Other observations

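The genes most like Fosb across the 12 hearts, chosen after their values were seen, were Olfr570 (r = 0.96, 0.97 after subtraction of group means) and Trp73 (r = 0.95, 0.96). The T cell receptor subunit gene Cd3e ranked 8 (r = 0.90). The others of the first 10 were Gabrr1, Cldn9, Car7, Mlze, Dbndd1, Ghrh and Mtap6. The r values of these genes use the 1 Fosb spot not well above background at its measured value. They also include the arrays of the second scan day, where Fosb was highest, and were not taken without them. No member was among the 10 most like Fosb. The score of T and B lymphocyte markers had r = 0.58 with Fosb (rho = 0.43, permutation p = 0.0472 and 0.162; adjusted over 18 measures 0.62 and 0.585), which was 0.13 on the 10 arrays of the first scan day and 0.55 without the 2 farthest hearts.

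Btg1, an antiproliferative gene of the feedback list, was the gene outside the members most like Egr1 (r = 0.89, 0.85 after subtraction of group means); it was among the 3 of that list that fell with age.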
